A study of Mus musculus with 7 samples.

Results

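Mouse neutrophils carry a set of survival and death genes of the BCL2 family, and 10 of them are described here across healthy tissues and inflamed sites: Bcl2a1a, Bcl2a1b, Bcl2a1d, Mcl1, Bcl2l1, Bcl2, Bcl2l11, Pmaip1, Bax and Cflar. They were chosen by name, from 28719 gene names in the count tables, and followed in 12755 of 16907 healthy cells and in 4852 of 4856 cells of the inflammation library. A healthy cell was counted as a neutrophil when the calprotectin transcripts S100a8 and S100a9 made up at least 3% of its unique molecular identifiers (UMIs, 1 per captured transcript). A cell of the inflammation library was counted when the authors' ImmGen label for it began with GN, for granulocyte.

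All mice were male C57BL/6J with no genetic change named, and cells were sorted as CD11b+ Ly6G+ and propidium iodide-negative before droplet capture with 10X Genomics 3′ reagents. Untreated blood, bone marrow and spleen were profiled in 2 runs, each with cells of 3 pooled mice aged 6 weeks in run 1 and 8 weeks in run 2, so age and run cannot be told apart. The inflammation library held 5 conditions from mice aged 8 weeks, 1 pool each, told apart by hashtag. They were blood of healthy mice, blood and joint lavage taken on day 7 from mice given 150 µl of K/BxN arthritogenic serum intraperitoneally on days 0 and 2, bronchoalveolar lavage (lung) taken 3 h after 25 ng of intranasal IL-1β, and peritoneal lavage taken 3 h after 25 ng of intraperitoneal IL-1β. For the joint, the labels name the femorotibial joint and the study's methods the tibiotalar joint. Lavage samples the cells of the flushed space, with any blood cells carried over, and with 1 pool per condition, pool and condition cannot be told apart.

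The 7 libraries held 1219 to 4856 cells and 1968514 to 16390439 UMIs, and any pair of them shared 0 to 36 cell barcodes. The median neutrophil held 775 to 2698.5 UMIs in the healthy libraries and 2527 to 3681 in the 5 conditions. All 15 neutrophil marker genes checked were detected in each of these 11 groups of cells, but also in the cells that the rule left out of each healthy library. Detection alone thus does not tell neutrophils from other cells. Spleen of run 2 stood apart, since 46.2% of its cells met the neutrophil rule against 78.9% to 94.9% in the other healthy libraries. Its neutrophils also carried the most B cell transcripts, 903 counts per 1000000 UMIs (CPM) summed over 8 markers against 4.47 to 330 elsewhere. In run 1 only 4 or 5 of the 8 markers were detected, also in the cells that the rule left out. The closer comparison is within run 2, where blood held 330 CPM and bone marrow 190. Blood of run 2 carried 30348 CPM of 6 erythroid markers against 252 to 912 in the other healthy libraries. The healthy and inflammation libraries were made with different reagent versions and software versions, so levels were compared only within the healthy libraries or within the inflammation library.

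The BCL2 family decides whether the outer mitochondrial membrane is breached, which lets out cytochrome c and so activates caspases. The guardians BCL2, BCL-XL (Bcl2l1), MCL1 and A1 (the Bcl2a1 genes) bind and hold the pore former BAX, whereas the BH3-only proteins BIM (Bcl2l11) and NOXA (Pmaip1) occupy the guardians. NOXA binds MCL1 and A1, and BIM binds all guardians. Neutrophils live for a short time, depend on MCL1, whose protein turns over rapidly, and use little BCL2. Cflar encodes c-FLIP, which restrains caspase-8 at death receptors.

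The Bcl2a1 genes are near-identical copies that lie close together on chromosome 9. Bcl2a1d spans chr9:88723285-88731914 on the minus strand, Bcl2a1a chr9:88956900-88962419 on the plus strand and Bcl2a1b chr9:89199209-89207827 on the plus strand (GRCm38). Their stretches just upstream of the annotated start are shown because they make plain how alike the copies are. Capitals mark the bases that differ between the copies, sequences read 5′ to 3′ on the strand of the gene, and all come from RefSeq (GRCm38.p6). The stretch of Bcl2a1a lies at chr9:88956714-88956855, that of Bcl2a1b at chr9:89199023-89199164 and that of Bcl2a1d at chr9:88731915-88732050.
Bcl2a1a: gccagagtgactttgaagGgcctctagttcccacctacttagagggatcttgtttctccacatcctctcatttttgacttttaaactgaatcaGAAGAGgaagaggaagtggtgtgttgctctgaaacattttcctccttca
Bcl2a1b: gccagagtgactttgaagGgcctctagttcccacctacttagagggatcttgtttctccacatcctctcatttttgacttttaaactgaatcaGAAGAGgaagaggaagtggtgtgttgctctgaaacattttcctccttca
Bcl2a1d: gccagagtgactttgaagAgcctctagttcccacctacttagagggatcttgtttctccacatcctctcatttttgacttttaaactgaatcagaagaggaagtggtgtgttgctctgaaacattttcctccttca

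The stretches of Bcl2a1a and Bcl2a1b were identical over 142 bases, and that of Bcl2a1d differed from them at 7 of 142 aligned positions, gaps included (95.1% identity). The transcripts were 98.2% to 99.1% identical between copies, and 57.6% to 79.5% of their 50-base windows also occurred in another copy. Cell Ranger counts only reads that map to 1 gene, so the UMIs of each copy are those from the stretches that differ, and levels of single copies are uncertain. For that reason the sum of the copies, called Bcl2a1 below, is given beside each of them. The sum lacks the shared reads too, so Bcl2a1 may be counted too low against other genes, by an amount that was not measured. The letters GAGGAAGT, the core that PU.1 binds, were searched on both strands of the 250 bases before each RefSeq start. They were found for the Bcl2a1 copies and for no other of the 9 members with a promoter entry, against 2.44% of 32851 promoters. An NF-κB type motif was also searched and matched 0 of the members' 12 promoters, against 17.6% of all. Both motifs were chosen after the sequences had been seen, and a match is a description only.

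The first comparison asked how the members differ between neutrophils of bone marrow, where they are made, and those of blood and spleen. Mcl1, Bcl2a1a, Bcl2a1b and both BH3-only genes were higher in blood than in bone marrow, while Bcl2a1d, Bcl2l1, Bcl2, Bax and Cflar gave no call. Of 10 members tested, 5 rose and 0 fell in blood, against 11.7% of 7809 genes that rose and 9.94% that fell, 21.7% in all (edgeR quasi-likelihood test with run as a block, Benjamini-Hochberg FDR of 0.05). The median log2 fold change was 2.04 over the members and -0.02 over all genes. Here and below, counts and medians of members take the near-identical Bcl2a1 copies as separate members, so they weigh more than any other gene. Each run is a pool of mice and was fitted as a block. The p-values thus rest on how far the tissue differences disagree between the 2 runs, not on the spread between pools. Levels are CPM with n = 2 libraries, and a CPM is a share of UMIs, so less of a transcript and more of the others cannot be told apart.

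Mcl1 gave the most UMIs of the members in every library, on a 3′ count that does not grow with transcript length. It stood at 116 and 214 CPM in bone marrow (runs 1 and 2), against 221 and 843 in spleen and 689 and 970 in blood. Both blood libraries lay above both bone marrow libraries, whereas spleen of run 1 lay close to bone marrow and spleen of run 2 close to blood. Mcl1 rose in blood over bone marrow by 2.1 ± 0.289 on the log2 scale (SE, FDR = 0.00512). The difference between spleen and bone marrow, 1.31 ± 0.283, did not pass (FDR = 0.0641), and the ratio was 1.90 in run 1 and 3.94 in run 2.

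Bcl2a1 was low in all healthy neutrophils. The sum of the copies was 5.89 and 6.7 CPM in bone marrow, against 19.7 and 51.6 in spleen and 27.9 and 50.8 in blood, with 25 to 177 UMIs behind each value. No blood or spleen library overlapped bone marrow. The sum was higher than in bone marrow by 2.35 ± 0.277 on the log2 scale in blood (FDR = 0.00353) and by 2.23 ± 0.277 in spleen (FDR = 0.018). Of the copies, Bcl2a1a and Bcl2a1b rose in blood, by 1.97 ± 0.379 (FDR = 0.0138) and 2.43 ± 0.349 (FDR = 0.00602). Bcl2a1d was seen with 0 and 4 UMIs in bone marrow, where a count of 0 allows up to 0.706 CPM, and its difference of 3.83 ± 1.59 did not pass (FDR = 0.13).

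The remaining guardians, Bcl2l1 and Bcl2, gave no call. Bcl2l1 ranged from 12.8 to 21.3 CPM over the healthy libraries, with a log2 difference of 0.10 ± 0.289 between blood and bone marrow (FDR = 0.835). Bcl2 had 0 UMIs in blood of run 1, where up to 2.21 CPM would be allowed, and 0.372 to 3.45 CPM in 4 other libraries. It reached 13.8 CPM only in spleen of run 2, the library with the most B cell and T cell transcripts in its neutrophils (903 and 196 CPM), and their part in this value was not tested. The cells outside the neutrophil rule in that library held 221 CPM of Bcl2.

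Both BH3-only genes were higher in blood. Pmaip1 stood at 3.06 and 2.64 CPM in bone marrow, against 27.9 and 31.7 in spleen and 60.3 and 35.6 in blood. Both bone marrow libraries lay far below the others, while the counting intervals of blood and spleen overlapped in run 2, and the ratio of blood to bone marrow was 19.7 in run 1 and 13.5 in run 2. Pmaip1 showed the largest call among the members, 3.70 ± 0.285 on the log2 scale in blood (FDR = 0.0019) and 3.18 ± 0.289 in spleen (FDR = 0.0108). Bcl2l11 stood at 3.53 and 3.95 CPM in bone marrow, against 6.33 and 30.7 in spleen and 21.3 and 28.7 in blood. It rose in blood by 2.47 ± 0.417 (FDR = 0.00983), and spleen of run 2 was again closer to blood than spleen of run 1 was.

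The pore former Bax and the c-FLIP gene Cflar gave no call. Bax stood at 33.7 and 24.2 CPM in bone marrow, against 33.5 and 46 in spleen and 55.9 and 44.0 in blood, and its difference of 0.51 ± 0.229 in blood did not pass (FDR = 0.158). Cflar was the most even member, at 52.9 to 64.1 CPM over the 6 libraries, with a difference of -0.45 ± 0.232 (FDR = 0.212). The plot of healthy levels shows both patterns.

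**Figure D1:**
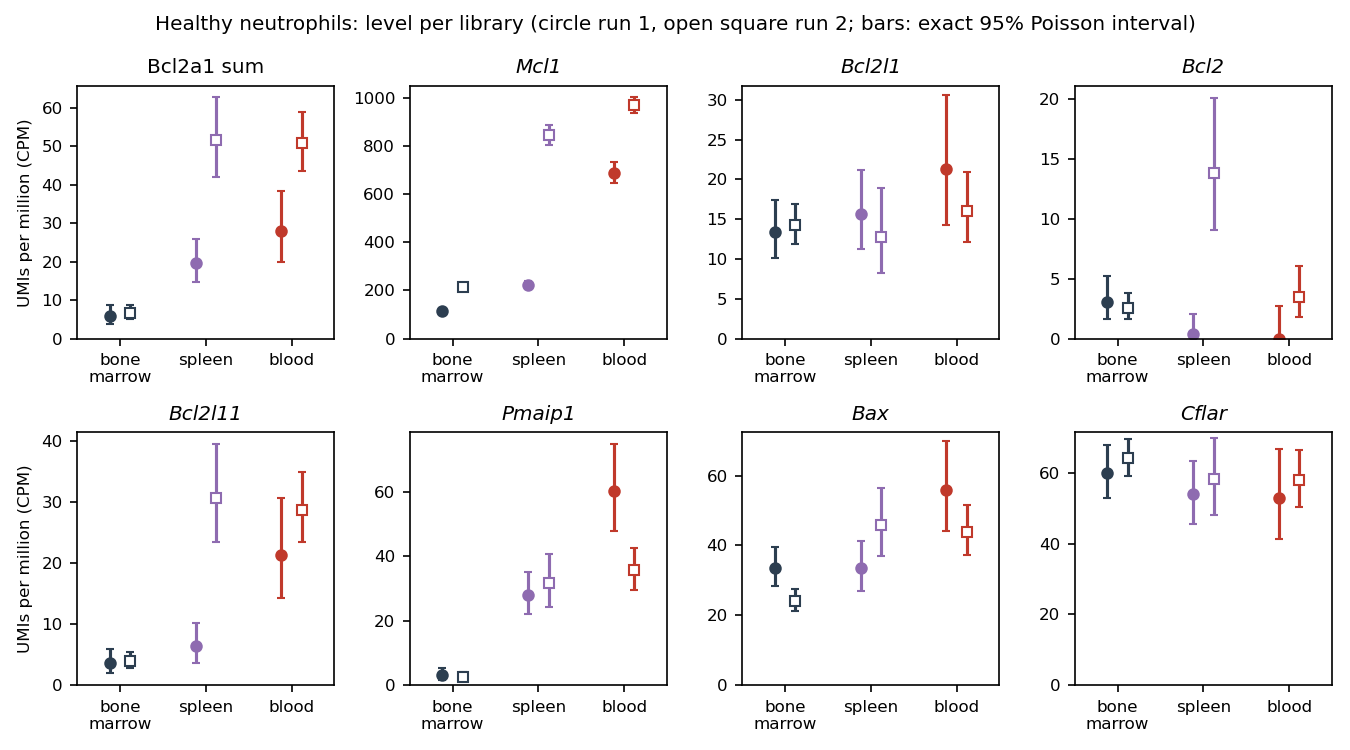
Level of each member in neutrophils of bone marrow, spleen and blood, in CPM on a linear axis from 0, 1 point per library (circles run 1, open squares run 2) with the exact 95% Poisson interval of its count. Mcl1, the Bcl2a1 sum, Bcl2l11 and Pmaip1 lie lowest in both bone marrow libraries, Cflar stays within 52.9 to 64.1 CPM, and Bcl2 is high only in spleen of run 2.

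In spleen against bone marrow, 2 of the 10 members rose (Bcl2a1b and Pmaip1) and 0 fell, against 2.24% of all genes that rose and 0.512% that fell, 2.75% in all. The median log2 fold change was 1.52 over the members and -0.01 over all genes, and 6 members had an unadjusted p under 0.05. Between blood and spleen, 0 members were called by edgeR and 0 by DESeq2, with 1 of 10 at an unadjusted p under 0.05 by each tool, against 0.0512% of all genes called. That member was Mcl1 by edgeR, higher in blood by 0.79 ± 0.281 (FDR = 0.452).

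Which members passed depended on the blood libraries and on the block. Without blood of run 1, only Pmaip1 of the members rose in blood over bone marrow, and without blood of run 2, 0 did by edgeR, with 5 at an unadjusted p under 0.05. The number in spleen went to 0 without either blood library (5 at an unadjusted p under 0.05 each time), to 1 (Pmaip1) without spleen of run 2, and to 5 without bone marrow or spleen of run 1. Without the run as a block, Pmaip1 alone rose in blood (FDR = 0.0351) and 0 members in spleen (4 at an unadjusted p under 0.05), while DESeq2 called 4 and 3 members. The calls over all genes changed with these fits too. For blood, 0.655% were called without blood of run 1, 0% without blood of run 2, 2.1% without the block and 15.1% with DESeq2. For spleen, 0% were called without either blood library or without the block, 0.675% without spleen of run 2, 8.95% and 14.3% without bone marrow or spleen of run 1, and 3.41% with DESeq2. In the fits with 0%, 663 to 2025 genes had an unadjusted p under 0.05. The log2 fold changes of the called members kept their sign under every one of these alternatives, and those of Pmaip1 in blood lay between 3.52 and 3.93 when single libraries were left out.

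Bone marrow holds neutrophils at many stages, so the members were also read along the loss of granule transcripts, which are made early. Cells were grouped by the share of UMIs from the granule genes Camp, Ngp and Ltf, and groups under 50 cells were not used. The group under 1% held 30.4% and 45.4% of bone marrow neutrophils, against 53.5% and 96.6% in spleen and 87.7% and 98.8% in blood. Bone marrow neutrophils also held 889 and 429 CPM of 7 markers of early or cycling neutrophils, against 22.7 to 113 in blood and spleen. Cells under 1% were also shallower, with 767 to 1681 median UMIs against 2311 to 4068 in the groups of at least 5%.

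Mcl1 was low wherever granule genes were high. In cells with at least 5% it stood at 66.8 and 85.5 CPM in bone marrow, against 74.1 and 102 in spleen, and 135 in blood of run 1, the only blood library with such a group. Under 1% it stood at 262 and 440 CPM in bone marrow, against 669 and 955 in spleen and 894 and 998 in blood. In each library with both groups, granule-poor cells held more Mcl1 than granule-rich cells, and granule-poor cells of bone marrow still held less than those of blood and spleen.

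The BH3-only genes followed the same order. Pmaip1 had 0 to 6 UMIs in the groups of at least 5%, with 2.03 and 0.845 CPM in bone marrow and 1.6 in spleen of run 1, and 0 UMIs in blood of run 1 and spleen of run 2, where a count of 0 allows up to 10.1 and 13.3 CPM. Under 1% it stood at 8.4 and 6.35 CPM in bone marrow, against 113 and 36.6 in spleen and 82.8 and 37.1 in blood. Bcl2l11 stood at 8.4 and 8.73 CPM in granule-poor cells of bone marrow, against 27.1 and 34.8 in spleen and 28.6 and 29.6 in blood. Bcl2a1 stood at 12.6 and 12.3, at 71.8 and 58.5, and at 36.8 and 52.3 CPM in the same tissues. Cflar showed no such order, with 35.5 to 64.2 CPM in the groups of at least 5% and 47.0 to 67.1 CPM under 1%.

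**Figure D2:**
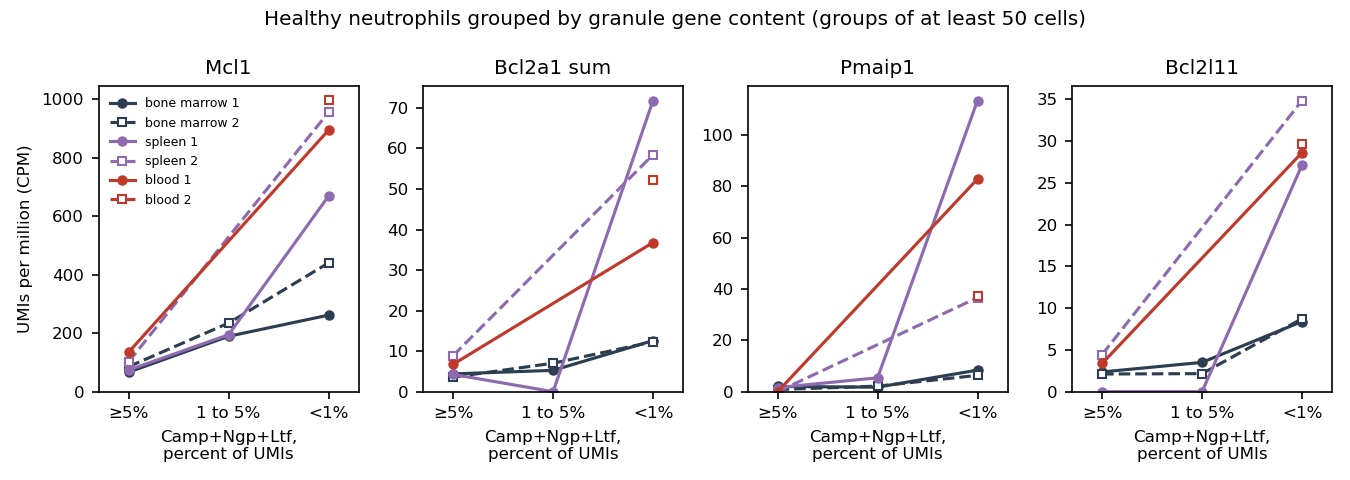
Level of Mcl1, the Bcl2a1 sum, Pmaip1 and Bcl2l11 (CPM, linear axes) in healthy neutrophils grouped by the share of UMIs from Camp, Ngp and Ltf, 1 line per library, solid for run 1 and dashed for run 2. Each gene is highest in granule-poor cells, and within these both bone marrow libraries lie below blood and spleen.

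Within granule-poor cells alone, 4 of the 9 members tested rose in blood over bone marrow and 0 fell, against 6.06% of 6044 genes that rose and 6.22% that fell. Mcl1 was higher by 1.09 on the log2 scale (FDR = 0.00998), Pmaip1 by 2.41 (FDR = 0.00124), Bcl2l11 by 1.38 (FDR = 0.0161) and Bcl2a1b by 2.03 (FDR = 0.0117). Each of these differences was smaller than over all neutrophils, and Bcl2a1a lost its call (0.69, FDR = 0.316). In spleen, 4 of 9 members rose over bone marrow in these cells, against 5.36% of genes that rose and 5.34% that fell. They were Mcl1 (0.85, FDR = 0.0378), Pmaip1 (2.63, FDR = 0.00119), Bcl2l11 (1.48, FDR = 0.0164) and Bcl2a1b (2.51, FDR = 0.00528).

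The inflammation library asked how neutrophils at inflamed sites differ from those in blood. Each condition is 1 pool, so there is no test between conditions. Values are given with exact 95% intervals that cover counting error only, and a member is called past the fold when it was at least 2-fold higher or lower with an interval leaving out 1. The same healthy blood pool serves as control in 4 comparisons, which are therefore not independent. Lower values were common in this library. By CPM, the median gene differed from healthy blood by -0.42 on the log2 scale in arthritic blood, -0.52 in the joint, -1.04 in IL-1β lung and -1.11 in IL-1β peritoneum. Folds rescaled by TMM factors, which centre the middle genes, are therefore given wherever they change the call of a member.

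In the joint, lung and peritoneum, the Bcl2a1 sum differed from healthy blood more than any member other than its copies. In arthritic blood Pmaip1 differed most. Bcl2a1 stood at 51.6 CPM (95% interval 39.2 to 66.7) in healthy blood, 30.4 (24.2 to 37.8) in arthritic blood, 452 (439 to 465) in the arthritic joint, 2583 (2497 to 2671) in IL-1β lung and 4723 (4585 to 4863) in IL-1β peritoneum. The 3 lavaged sites lay far above both bloods, and none of the 3 overlapped another. The sum was 8.77-fold (6.77 to 11.6) higher than in healthy blood in the joint, 50.1-fold (38.7 to 66.1) in IL-1β lung and 91.6-fold (70.7 to 121) in IL-1β peritoneum. Arthritic blood was 1.69-fold (1.19 to 2.4) lower, short of 2-fold.

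Each copy was past the fold at each site. In the joint, Bcl2a1a was 2.19-fold (1.43 to 3.52) higher, Bcl2a1b 12.3-fold (8.67 to 17.9) and Bcl2a1d 17.1-fold (6.66 to 63.1). In IL-1β peritoneum, they were 63.6-fold (41.8 to 102), 95.8-fold (67.7 to 140) and 212-fold (82.4 to 780) higher, where the last rests on 4 UMIs of Bcl2a1d in healthy blood. The share of cells with a Bcl2a1 UMI was 9.82% in healthy blood (median depth 2527 UMIs), 53.3% in the joint (3531), 74.5% in lung (3681) and 83.6% in peritoneum (3475.5). After each cell was thinned to 1000 UMIs the shares were 4.24%, 29.6%, 75.9% and 81.8%, with 61 to 155 shallower cells left out per condition. Arthritic blood, of the same droplet run, stood at 8.23% before thinning and 2.82% after it. The blood shares hold the cells' own transcripts as well as any free RNA, and the parts were not told apart.

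**Figure D3:**
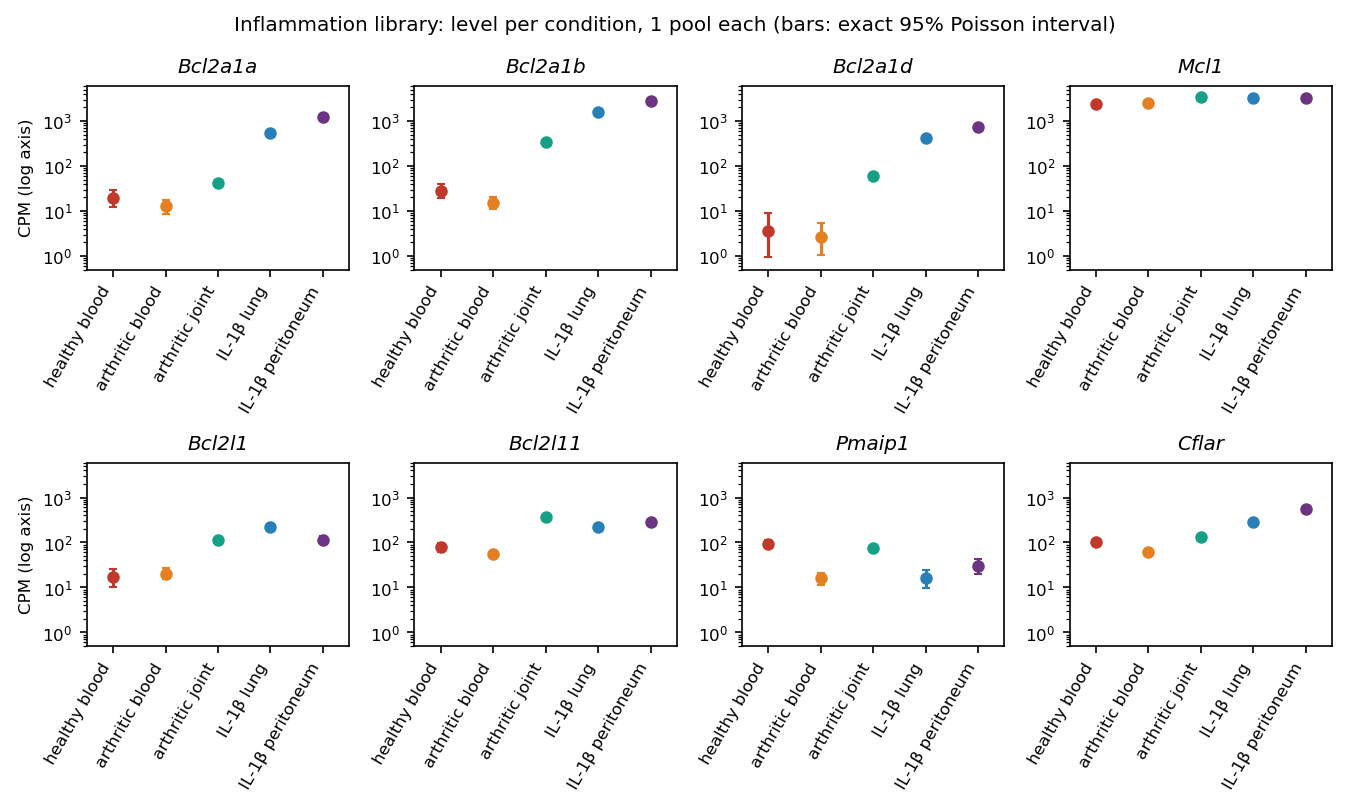
Level of 8 members in the 5 conditions of the inflammation library, in CPM on a shared log axis, 1 pool per condition with the exact 95% Poisson interval of its count, shown where it is wider than the point. The Bcl2a1 copies lie above healthy and arthritic blood at all 3 sites, Mcl1 stays near the top of the scale in every condition, and Pmaip1 is lowest in arthritic blood and IL-1β lung.

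The copies did not contribute in the same proportion everywhere. Bcl2a1a made up 37.9% of Bcl2a1 UMIs in healthy blood (Clopper-Pearson 95% interval 25.5 to 51.6), 41.5% (30.7 to 52.9) in arthritic blood, 9.45% (8.62 to 10.3) in the joint, 21.3% (20 to 22.8) in IL-1β lung and 26.3% (25.1 to 27.7) in IL-1β peritoneum. The joint was lowest, and its interval overlapped none of the others. Bcl2a1b supplied 77.1% (75.8 to 78.3) in the joint against 50% to 62.8% in the other conditions. In the healthy tissues, with 25 to 177 Bcl2a1 UMIs, Bcl2a1a ranged from 27.1% to 47.4% and Bcl2a1d from 0% to 14.9%. Whether reads shared between the copies bear on these shares was not tested.

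**Figure D4:**
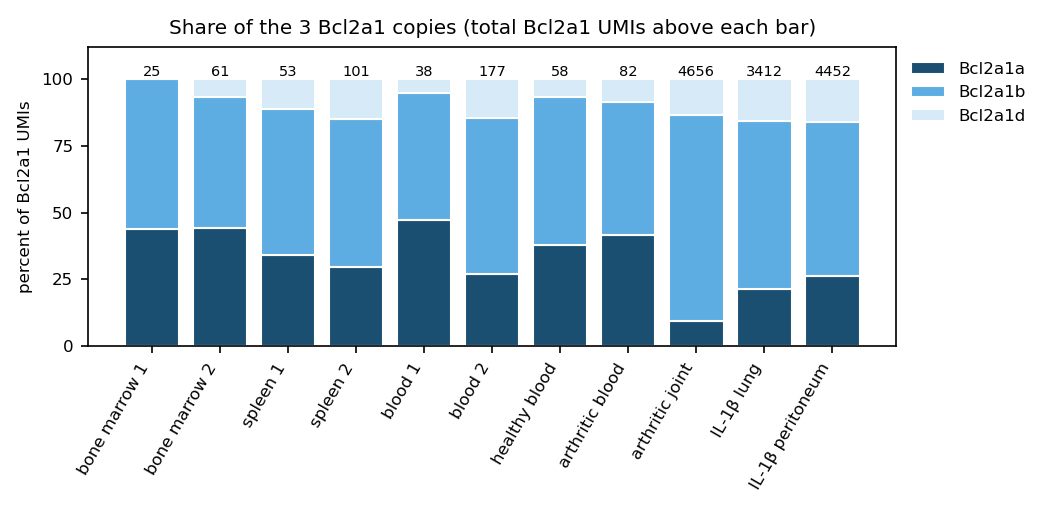
Share of the UMIs of the Bcl2a1 copies that fell on Bcl2a1a, Bcl2a1b and Bcl2a1d, in percent from 0 to 100, with the total number of Bcl2a1 UMIs above each bar (1 bar per healthy library or inflamed condition). The arthritic joint stands out by its Bcl2a1a share of 9.45% and its Bcl2a1b share of 77.1%.

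Mcl1 was abundant in every condition and differed far less. It stood at 2409 CPM (2319 to 2502) in healthy blood, 2455 (2396 to 2515) in arthritic blood, 3405 (3369 to 3441) in the joint, 3231 (3134 to 3329) in IL-1β lung and 3244 (3130 to 3361) in IL-1β peritoneum. The bloods overlapped each other, and the sites lay above them by 1.41-fold, 1.34-fold and 1.35-fold, short of 2-fold. On the TMM scale the same folds were 2.08 in the joint, 2.5 in lung and 2.53 in peritoneum, past 2-fold, so whether Mcl1 counts as higher at these sites depends on the scaling.

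Bcl2l1, which encodes BCL-XL, was past the fold at all 3 sites. It stood at 16.9 CPM (10.2 to 26.4) in healthy blood, 20.4 (15.4 to 26.6) in arthritic blood, 112.2 (106 to 119) in the joint, 225 (200 to 252) in IL-1β lung and 114 (93 to 137) in IL-1β peritoneum. The fold over healthy blood was 6.64 (4.23 to 11.1) in the joint, 13.3 (8.37 to 22.4) in lung and 6.72 (4.1 to 11.6) in peritoneum. Lung was the highest, unlike for Bcl2a1. Bcl2 was found with 2 UMIs in the joint and 0 in the other conditions, where a count of 0 allows 1.11 to 3.18 CPM.

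The BH3-only genes did not move together. Bcl2l11 stood at 78.2 CPM (62.7 to 96.4) in healthy blood, 56.4 (47.8 to 66.2) in arthritic blood, 361 (349 to 373) in the joint, 221 (196 to 248) in IL-1β lung and 284 (251 to 320) in IL-1β peritoneum. All 3 sites were past the fold, at 4.61-fold (3.74 to 5.77), 2.83-fold (2.22 to 3.63) and 3.63-fold (2.85 to 4.68). By CPM the joint was the highest and lung the lowest of the sites for Bcl2l11, whereas lung was the highest for Bcl2l1. On the TMM scale joint and peritoneum were alike for Bcl2l11, at 6.79-fold and 6.83-fold over healthy blood, with lung at 5.28-fold.

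Pmaip1 was high in healthy blood and the joint and low elsewhere. It stood at 91.6 CPM (74.7 to 111) in healthy blood, 16 (11.6 to 21.5) in arthritic blood, 77.3 (72 to 82.9) in the joint, 15.9 (9.84 to 24.3) in IL-1β lung and 29.7 (19.7 to 42.9) in IL-1β peritoneum. Against healthy blood it was 5.74-fold (3.98 to 8.39) lower in arthritic blood, 5.76-fold (3.58 to 9.7) lower in lung and 3.08-fold (2.01 to 4.86) lower in peritoneum. On the TMM scale arthritic blood (4.17-fold lower) and lung (3.08-fold lower) stayed past the fold and peritoneum did not (1.64-fold lower). The joint was not past the fold by CPM (0.844-fold, 0.687 to 1.05) and lay slightly above healthy blood on the TMM scale (1.24-fold).

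Cflar was 2.88-fold (2.33 to 3.58) higher than healthy blood in IL-1β lung and 5.59-fold (4.55 to 6.91) higher in IL-1β peritoneum. Its levels were 100.5 CPM (82.8 to 121) in healthy blood, 60.9 (51.9 to 71) in arthritic blood, 134 (127 to 141) in the joint, 289 (261 to 320) in lung and 561 (514 to 611) in peritoneum. By CPM none of the 5 conditions overlapped, whereas on the TMM scale arthritic blood was 0.835-fold (0.653 to 1.07) healthy blood, an interval that holds 1. Bax was 3.47-fold (1.91 to 6.74) lower in peritoneum, with 14 UMIs, and 1.84-fold (1.2 to 2.86) lower in lung. On the TMM scale Bax was 1.85-fold lower in peritoneum and even with healthy blood in lung (1.01-fold), and in the joint its CPM fold of 1.77 became 2.60.

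Counted together, 0 of 9 members were past the fold upward in arthritic blood and 1 downward (Pmaip1), against 0.762% and 10.2% of all genes (11% in all). In the joint, 5 were higher and 0 lower, against 7.34% and 22.1% (29.4% in all). In IL-1β lung, 6 were higher and 1 lower, against 9.91% and 46.6% (56.5% in all), and in IL-1β peritoneum 6 were higher and 2 lower, against 9.16% and 47.8% (57% in all). The median log2 fold of the members was -0.63, 1.13, 1.53 and 2.48 in these conditions, and that of all genes was -0.42, -0.52, -1.04 and -1.11. On the TMM scale 7 members were higher and 0 lower in the joint, against 14% and 8.05% of all genes, 7 and 1 in lung, against 19.3% and 19.5%, and 7 and 0 in peritoneum, against 18.1% and 17.9%. Bcl2 was left out of these counts because it had under 10 UMIs in each pair. The Bcl2a1 copies, each past the fold in joint, lung and peritoneum, were counted as separate members, although their single levels are uncertain.

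Set directly against arthritic blood, the joint of the same model was higher in 8 of 9 members, with 0 lower, against 12% of all genes higher and 8.36% lower. Only Mcl1 was short of 2-fold (1.39, 1.35 to 1.42). Cflar, at 2.20-fold (1.87 to 2.6), fell short too when S100a8 and S100a9 were left out of the CPM or cells were thinned to 1000 UMIs, which left 7 members. Bcl2a1 was 14.9-fold (11.9 to 18.7) higher, Bcl2l11 6.4-fold (5.44 to 7.57), Bcl2l1 5.49-fold (4.19 to 7.34) and Pmaip1 4.84-fold (3.56 to 6.75). Between the sites of IL-1β exposure, only Bcl2a1a was past the fold, 2.26-fold (2.06 to 2.48) higher in peritoneum than in lung, against 7.11% of genes higher and 7.69% lower. Bcl2a1 was 1.83-fold (1.75 to 1.91) higher in peritoneum, Cflar 1.94-fold (1.7 to 2.22) higher and Bcl2l1 1.98-fold (1.58 to 2.49) lower, with Mcl1 even (1.00, 0.958 to 1.05). Both of these comparisons were added after the data had been seen.

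The authors' ImmGen labels, assigned from the same transcriptomes, split the joint cells further. The 2260 joint cells matched to synovial fluid neutrophils of arthritis held 502 CPM of Bcl2a1 (487 to 518), and the 245 matched to thioglycollate-elicited peritoneal neutrophils held 403 (355 to 456). The 255 joint cells matched to blood neutrophils held 99.9 (80.5 to 122), between arthritic blood and the other joint cells. Bcl2l11 stood at 388 CPM (375 to 402), 400 (352 to 453) and 136 (113 to 162) in these classes, so the first 2 overlapped. The 96 joint cells matched to the ImmGen class GN.UrAc.PC held 165 CPM of Bcl2a1 (118 to 224) and 160 of Bcl2l11 (114 to 219), and overlapped the blood-like cells in both. Mcl1 lay between 2724 and 3531 CPM.

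The balance of the survival and BH3-only sides was followed as the UMIs of Bcl2a1 and Mcl1 per UMI of Pmaip1 and Bcl2l11, which no scaling can change. It is a ratio of transcripts captured, not of proteins, and capture can differ between genes, so it is compared between groups and its size alone says little. In healthy tissues it was 18.5 (12.6 to 28.1) and 33.5 (25.9 to 44.0) in bone marrow, against 7.03 (5.65 to 8.85) and 14.3 (11.9 to 17.4) in spleen and 8.78 (7.21 to 10.8) and 15.9 (13.9 to 18.2) in blood. Run 2 lay above run 1 in each tissue, and within each run bone marrow lay above both others.

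The ratio of blood to bone marrow was the same in both runs, -1.07 and -1.08 on the log2 scale, and that of spleen to bone marrow was -1.40 and -1.22. Between blood and bone marrow the shift lay mainly with Pmaip1: there were 37.9 and 81.2 Mcl1 UMIs per Pmaip1 UMI in bone marrow but 11.4 and 27.2 in blood. Per Bcl2l11 UMI there were 32.9 and 54.1 Mcl1 UMIs in bone marrow and 32.3 and 33.8 in blood, and 1.67 and 1.69 Bcl2a1 UMIs against 1.31 and 1.77. Spleen held 7.92 and 26.6 Mcl1 UMIs per Pmaip1 UMI and 34.9 and 27.5 per Bcl2l11 UMI, so in run 2 both ratios lay below bone marrow. With Mcl1 left out of the survival side, the difference of spleen from bone marrow was -0.63 in run 1 and -0.30 in run 2, and that of blood was -1.38 in run 1 and -0.36 in run 2. Pmaip1 supplied 46.4% and 40% of BH3-only UMIs in bone marrow, against 81.5% and 50.8% in spleen and 73.9% and 55.4% in blood.

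In the inflammation library the balance moved both ways. It was 14.5 (12.5 to 16.9) in healthy blood, 34.3 (29.8 to 39.8) in arthritic blood, 8.8 (8.53 to 9.08) in the joint, 24.5 (21.9 to 27.6) in IL-1β lung and 25.4 (22.6 to 28.6) in IL-1β peritoneum. The log2 difference from healthy blood was 1.24 (0.95 to 1.54) in arthritic blood, -0.72 (-0.94 to -0.50) in the joint, 0.76 (0.49 to 1.03) in lung and 0.81 (0.54 to 1.08) in peritoneum. Only the joint lay below healthy blood, and lung and peritoneum did not differ beyond counting error (0.048, -0.19 to 0.28). With every cell thinned to 500 UMIs, which weights cells evenly, the differences were 0.73 (0.025 to 1.44) in arthritic blood, -1.32 (-1.83 to -0.81) in the joint, 0.47 (-0.21 to 1.16) in lung and 0.049 (-0.59 to 0.69) in peritoneum. Lung and peritoneum then no longer lay beyond counting error of healthy blood.

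The make-up of each side differed more than the balance did. Bcl2a1 supplied 2.1% of survival UMIs in healthy blood and 1.23% in arthritic blood, but 11.7% in the joint, 44.4% in IL-1β lung and 59.3% in IL-1β peritoneum. Pmaip1 supplied 53.9% of BH3-only UMIs in healthy blood, 22.1% in arthritic blood, 17.6% in the joint, 6.71% in lung and 9.46% in peritoneum. Bcl2a1 thus came close to or passed Mcl1 in UMIs in the IL-1β conditions only, and Bcl2l11 supplied most BH3-only UMIs at all 3 sites.

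Taken apart, the sides did not give 1 answer. There were 14.2 Mcl1 UMIs per BH3-only UMI in healthy blood, 33.9 in arthritic blood, 7.77 in the joint, 13.6 in lung and 10.3 in peritoneum. The same counts for Bcl2a1 were 0.304, 0.421, 1.03, 10.9 and 15. By Mcl1 alone, the joint, lung and peritoneum lay at or below healthy blood (-0.057 on the log2 scale for lung and -0.46 for peritoneum), and by Bcl2a1 alone all 3 lay above it (1.76, 5.17 and 5.63).

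**Figure D5:**
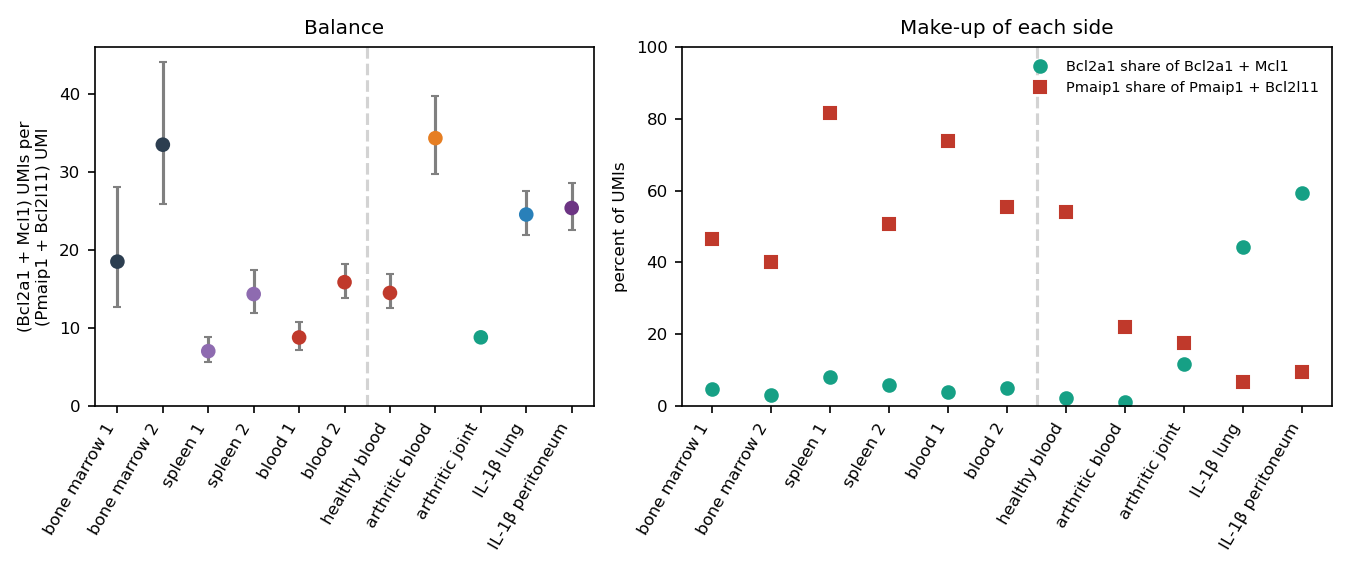
Left, UMIs of Bcl2a1 and Mcl1 per UMI of Pmaip1 and Bcl2l11 in each healthy library and inflamed condition, with exact 95% intervals for counting error (linear axis from 0). Right, the percent of Bcl2a1 in the survival side and of Pmaip1 in the BH3-only side, with the dashed line between healthy libraries and inflammation library. Bone marrow has the highest ratio within each healthy run and arthritic blood within the inflammation library, and Bcl2a1 makes up 44.4% and 59.3% of the survival side in the IL-1β conditions.

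The wider pathway was read from 5 lists with 55 genes, of which 41 passed the filter on low counts in healthy tissues. In blood against bone marrow, 7 of the 41 rose and 2 fell, where 11.7% and 9.94% of all genes did. Of the other BCL2 family genes 2 of 10 rose, the BH3-only gene Bmf (3.81 on the log2 scale, FDR = 0.0399) and Bnip3 (1.62, FDR = 0.00512). The inflammatory caspase Casp4 rose (1.58, FDR = 0.00667), as did the inhibitor of apoptosis Birc3 (0.91, FDR = 0.0428), the receptors Tnfrsf1a (1.33, FDR = 0.0118) and Fas (0.78, FDR = 0.0363), and Ier3, an early response gene (1.74, FDR = 0.0331). Birc5, which acts in dividing cells, fell by 4.42 (FDR = 0.0019), and Cycs, the cytochrome c gene, fell by 1.42 (FDR = 0.0268). In spleen, Casp4 rose (1.33, FDR = 0.0352) and Birc5 fell by 1.90 (FDR = 0.0248).

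At the inflamed sites, single genes of the caspase, death receptor, inhibitor of apoptosis and partner lists were past the fold upward by CPM, on which the median gene lay low. Of BH3-only genes outside the members, Bbc3 and Bid lay low by CPM, as given below. Traf1, an adaptor of TNF receptors, stood at 4.44 CPM in healthy blood, 23.6 in the joint, 238 in IL-1β lung and 258 in IL-1β peritoneum, or 5.31-fold (2.24 to 16.5), 53.5-fold (22.7 to 166) and 58-fold (24.5 to 180) higher on 5 UMIs in healthy blood. Ier3 was 4.89-fold (4.15 to 5.81), 29.8-fold (25.3 to 35.4) and 14.7-fold (12.4 to 17.5) higher, and in both IL-1β conditions Fas and Birc3 were also past the fold. Most genes of the lists they belong to were not past the fold upward. Of the death receptor genes 1 was higher and 1 lower of 8 in the joint, 2 and 1 of 6 in lung and 2 and 3 of 6 in peritoneum, and of the partner genes 1 and 0, 1 and 2, and 1 and 2 of 7. Of the inhibitors of apoptosis 0 were higher and 1 lower of 6 in the joint, and 1 higher and 2 lower in lung and in peritoneum. Of the caspase and apoptosome genes these were 2 and 2 of 11, 3 and 4 of 11, and 2 and 4 of 10. On the TMM scale, 2 and 0 death receptor genes were past the fold at each site. Partner genes then gave 2 and 0, 2 and 0, and 1 and 0, inhibitors 0 and 0, 1 and 0, and 2 and 1, and caspases 2 and 1, 3 and 4, and 5 and 2. The shares of all genes on both scales are given in the next paragraph. By CPM, Birc3 was 3.89-fold (3.2 to 4.76) higher in lung and 7.12-fold (5.89 to 8.67) in peritoneum, and Fas 4.8-fold (4.04 to 5.74) and 6.58-fold (5.53 to 7.87).

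Of the other BCL2 family genes, 0 of 9 were higher at any of the 3 sites. Lower were 3 in the joint, 7 in lung and 8 in peritoneum, where 22.1%, 46.6% and 47.8% of all genes were lower. Bbc3, which encodes the BH3-only protein PUMA, was 3.57-fold (2.26 to 5.5) lower in the joint and 8.81-fold (3.1 to 34.4) lower in lung. Bid, cleaved by caspase-8, was 2.02-fold (1.66 to 2.44), 7.1-fold (4.5 to 11.7) and 3.48-fold (2.35 to 5.3) lower in joint, lung and peritoneum. On the TMM scale Bbc3 stayed past the fold in the joint (2.42-fold lower) and lung (4.72-fold lower) and Bid in lung alone (3.8-fold lower, against 1.37-fold and 1.85-fold in joint and peritoneum). The count of lower BCL2 family genes on that scale was 1 in the joint, 3 in lung and 0 in peritoneum, with 0 higher. Over all lists, 4 of 41 genes were higher and 7 lower in the joint, 7 and 16 of 39 in lung, 6 and 19 of 38 in peritoneum, and 0 and 2 of 38 in arthritic blood (Trp53 and Naip5). Of all genes, 7.34% were higher and 22.1% lower in the joint, 9.91% and 46.6% in lung, 9.16% and 47.8% in peritoneum and 0.762% and 10.2% in arthritic blood. On the TMM scale these became 6 and 2, 8 and 7, 10 and 3, and 0 and 0, where 14% and 8.05%, 19.3% and 19.5%, 18.1% and 17.9%, and 3.18% and 3.15% of all genes were higher and lower, so most lower calls among the pathway genes rested on the scaling.

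The genes whose levels ran most alike with a member were looked up over the 11 groups of cells, each centred on the mean of its run or library, as a description without a test. With the Bcl2a1 sum, the closest of 3800 genes were Zfp281 (Pearson r = 0.982), the interleukin-1 receptor antagonist gene Il1rn (0.98), Marcksl1 (0.979), Arih2 (0.977) and Tax1bp1 (0.977). With Mcl1, genes among the closest were Vav1 (0.984), Slfn1 (0.979), Tpd52 (0.979) and Btg1 (0.977), of 3802 genes. With Pmaip1 they were Alcam (0.98), Lfng (0.961), Atf2 (0.952), 1600012H06Rik (0.948) and Gngt2 (0.936). The points are not independent, since tissues of a run share their mice and the conditions share a library.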

How the data were processed

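The deposited tables hold raw UMI counts per gene and cell barcode. According to the methods and labels, the authors aligned 10X 3′ reads to mm10 with Cell Ranger 1.2.0 (healthy run 1), 2.1.0 (healthy run 2) or 3.0.2 (inflammation library, split by hashtags), with chemistry version 2 for healthy and 3 for inflamed samples. Tables of run 1 listed 7346 to 8657 genes and the others 28692, and a gene absent from a table was taken as 0. Wrongly assigned reads between near-identical genes could not be corrected, and doublets were not sought beyond the authors' removal of hashtag doublets.

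UMIs of neutrophils were summed per library or condition, since cells are not replicates. Healthy sums were compared across all genes with edgeR 4.0.16 (R 4.3.3, TMM scaling, filterByExpr, quasi-likelihood test, group plus run, Benjamini-Hochberg over 7809 genes). The fit was also tried on simulated counts without run effects, which does not bear on the block. By the methods, a run's tissues were taken from the same pooled mice, and deviations from the tissue means correlated within runs (Pearson r = 0.513 to 0.626 over 7809 genes), so run numbers pair the libraries. Inflamed conditions have 1 pool each and no test. Their values carry exact Poisson intervals, folds carry exact conditional binomial intervals, and at least 10 UMIs per pair were needed. A count of 0 allows up to 3 counts. Alternatives were DESeq2 1.42.0, no block, no filter on low counts, library totals, other cell rules, thinned counts and leaving out single libraries.

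The members and lists were chosen with earlier results of these data known. All members are named, and of the pathway lists at most the 3 largest calls per list and comparison. Python 3.11.15 with pandas 2.3.3, scipy 1.17.1 and Biopython 1.88 was used for sums, intervals and sequences. A gene among those most like Mcl1 is not reported here.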

Additional observations from a re-analysis of the deposited data

How the results depend on the processing

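Depth limits the rare members most: Bcl2, Bcl2a1d and, in bone marrow, Pmaip1 rest on 0 to 27 UMIs per healthy library. Without the run as a block, the pairing of tissues was not used, and the members called went from 5 to 1 in blood and from 2 to 0 in spleen against bone marrow, with all genes called going from 1693 to 164, from 215 to 0 and, for blood against spleen, from 4 to 0. For spleen against bone marrow, 4 members were called without the filter on low counts, 4 in cells under 1% granule UMIs and 1 with the cell rule at 10%. All genes called were then 742 (blood) and 647 (spleen) under 1% granule UMIs, and 117 in spleen with mitochondrial and gene number filters. For blood against spleen all genes called were 28 with DESeq2, 18 without the filter, 19 with the rule at 10% and 8 under 1% granule UMIs. Leaving out 1 library gave 0 to 5 members and 0 to 2626 genes in blood against bone marrow, 0 to 5 members and 0 to 1250 genes in spleen against bone marrow, and 0 members and 0 to 245 genes in blood against spleen. With library totals in place of TMM the median gene stood at 0.26, 0.16 and 0.093 on the log2 scale in these comparisons, against -0.02, -0.01 and -0.02. Requiring S100a8 and S100a9 at 3% in the inflammation library gave 2 members past the fold in arthritic blood and 3 in peritoneum against lung, and thinning to 1000 UMIs gave 2 in the latter.

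The balance of blood against bone marrow (-1.08 on the log2 scale) was -0.87 without Mcl1, -1.08 without Bcl2a1, -1.05 and -0.81 with the rule at 1% and 10%, -0.95 under 1% granule UMIs, -0.68 with cells thinned to 500 UMIs, and -1.08 to -1.07 when runs were left out. That of spleen against bone marrow (-1.31) was -0.46 without Mcl1, -0.95 at 10%, -0.90 thinned and -1.40 to -1.22 without a run. Blood against spleen (0.23) turned to -0.41 without Mcl1, and was 0.41 under 1% granule UMIs and 0.15 to 0.32 without a run. Against healthy blood, leaving out Mcl1 gave 0.47 in arthritic blood, 1.76 in the joint (a reversal), 5.17 in lung and 5.63 in peritoneum, and 1.3 for the joint against arthritic blood (a reversal) and 0.46 for peritoneum against lung. Leaving out Bcl2a1 reversed lung (-0.057) and peritoneum (-0.46) and gave -0.40 for peritoneum against lung. Thinned to 500 UMIs, the values were 0.73, -1.32, 0.47, 0.049 and, for peritoneum against lung, -0.42. Apart from leaving out Mcl1 or Bcl2a1, which by construction changes the ratio, the cause was not tested. Of the values for single members, 385 of the healthy ones kept direction and call, 24 lost a call, 12 gained one and 23 changed direction without a call. Of the inflamed ones, 333 stayed within the counting interval of the main fold, whatever their call, and 41 moved outside it. Among the inflamed values past the fold, 0 changed direction, whereas some short of it did, such as Pmaip1 in the joint on the TMM scale.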

Other observations

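Cells of the healthy libraries outside the neutrophil rule, a mixed group, used the members in another proportion. Bcl2 stood at 11.8 to 221 CPM in them, against 0 to 13.8 CPM in neutrophils of the same libraries. It was highest in the spleen libraries (190.2 and 221 CPM), and the outside cells of spleen in run 2 held 10667 CPM of 8 B cell markers. Mcl1 was lower outside the rule in every healthy library except spleen of run 1, where blood gave 297 and 93.7 CPM, bone marrow 58.7 and 99.8 and spleen 280.1 and 169. Erythroid markers took 188296 and 810403 CPM of the outside cells in blood and 225234 CPM in bone marrow of run 1, and so lower the CPM of every other gene there. Bcl2a1 was higher outside the rule in 4 of the 6 libraries, reaching 296 CPM in blood and 248 CPM in spleen of run 1, against 27.9 and 19.7 CPM in their neutrophils. Which cell types carry these transcripts was not tested.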
